A study of Homo sapiens with 6 samples.

Results

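The genes described are 41 interferon-stimulated genes, among them the chemokine gene CXCL10. They were chosen by a list of symbols from general knowledge and looked up by symbol in the deposited count table. Earlier results of these data, among them the call of CXCL10, were already known. All 41 had a row among the 27234 of the table, and all 41 passed the filter on low counts, in a total of 9420 tested genes. Levels were measured in A673 cells, a line from an Ewing sarcoma with the EWS-FLI1 fusion, 48 h after transfection. The first group, siFLI1, received siRNA against FLI1 and the second, siControl, a scrambled siRNA, with 3 libraries each. Libraries in either group came from the same line and the same serum-containing medium, no interferon or virus is named in the labels, and the sources used here do not state which part of FLI1 the siRNA targets. RNA was read at the 3' end in bulk, so a lower level per cell and fewer cells that express a gene cannot be told apart.

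Interferons are secreted when a cell senses foreign or misplaced nucleic acid. They bind receptors coupled to Janus kinases, which phosphorylate STAT proteins. Complexes of STAT proteins with IRF9 bind the interferon-stimulated response element (ISRE) in promoters, while STAT pairs bind the gamma-activated site (GAS), and interferon regulatory factors such as IRF1 and IRF7 act on overlapping elements. The induced genes encode antiviral effectors, the RNA sensors that feed the pathway, and chemokines that attract T cells through the receptor CXCR3. Many tumour lines express part of this set in culture without added interferon.

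Sums of assigned counts ran from 417145 to 1893606 in siFLI1 and from 1248395 to 1790051 in siControl. The lowest belonged to siFLI1 replicate 3, in which 1 count equalled 2.68 CPM (counts scaled to library size by trimmed mean of M values), against 0.539 to 0.855 CPM in the other 5 libraries. In that library 10.1% of the total in the column header was assigned to genes, against 41.2% to 61.0% elsewhere, and siControl replicate 1 had the one scaling factor above 1, at 1.23. Values without both of these libraries are given after the results by role. FLI1 itself was at 19.0, 42.5 and 24.1 CPM in siFLI1 and at 63.0, 69.1 and 62.4 CPM in siControl, with no overlap and an adjusted p of 0.17 (edgeR quasi-likelihood test). The Ewing sarcoma markers CD99, NKX2-2, NR0B1, STEAP1, PRKCB and LIPI all passed the filter, and NR0B1 and PRKCB were called lower, calls that neither kept in any fit without 1 library (edgeR adjusted p 0.0634 to 0.104 for NR0B1 and 0.0633 to 0.19 for PRKCB) or without both libraries named above (0.0525 and 0.0594). Of 8 leukocyte markers CD3E had no count, and CD68, a lysosomal protein also made outside leukocytes, gave 489 of the list's 554 counts. The summed level of that list was 77.7 to 96.4 CPM in siFLI1 and 49.5 to 62.4 CPM in siControl. PTPRC, the pan-leukocyte marker CD45, had 0, 0 and 16 counts in siFLI1 and 0, 0 and 6 in siControl, and the part of these counts in the results below was not tested. Endothelial markers summed to 23 and epithelial markers to 13 counts over all libraries.

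Among the 41 genes CXCL10 fell and no other gene passed an adjusted p of 0.05 (quasi-likelihood test of edgeR). That is 1 gene lower and 0 higher, where 0.117% of all tested genes were called lower and 1.34% higher. The call of CXCL10 was known beforehand, so its share of the set is not an independent result. DESeq2 and limma-voom likewise called 1 gene lower and none higher. Over all genes with an adjusted p, DESeq2 called 0.383% lower and 2.06% higher, and limma-voom 0.138% lower and 1.35% higher. By unadjusted p (below 0.05), 8 of the 41 were lower, against 4.13% of all tested genes, and 2 were higher, against 6.62%. The 8 were CXCL10, EIF2AK2, OAS1, IRF7, MX1, CXCL11, RSAD2 and DDX58, and the 2 were IRF1 and ISG20. The siFLI1 libraries lay wholly below the siControl libraries for 9 of the 41, against 7.71% of all tested genes, and wholly above for 1, IRF1, against 8.93%. In all, 33 of the 41 had a log2 fold change below 0, against 49.6% of all tested genes, and the median was −0.22, against 0.01 over all tested genes. The size of that median depended on the libraries: without siControl replicate 1 it was −0.41, with 33 of 41 below 0, and in the other fits without 1 library it lay between −0.33 and −0.22, with 29 to 32 below 0. Fold changes ran from −1.87 for CXCL10 to 0.86 for ISG20.

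**Figure D1:**
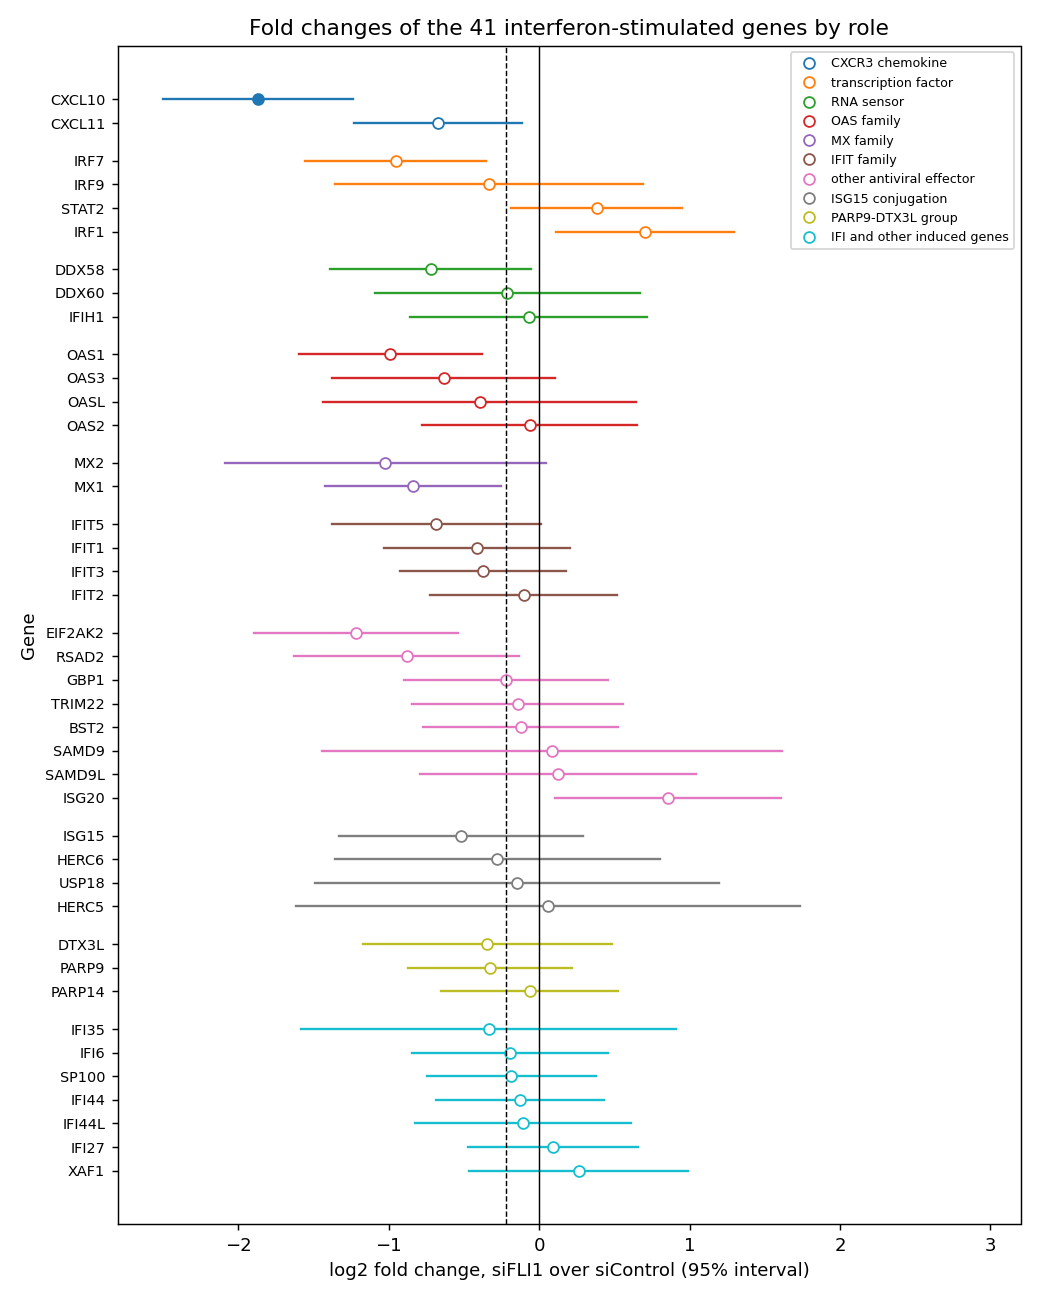
Log2 fold change of siFLI1 over siControl for each of the 41 genes, grouped by role (colours), with the 95% interval of each as a line and the median of the 41, −0.22, as a dashed line. The filled point is CXCL10 at −1.87, the gene that passed the threshold, and 33 points lie below 0.

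The chemokines CXCL10 and CXCL11 are ligands of CXCR3 on activated T cells and natural killer cells. CXCL10 (row NM_001565, chromosome 4, 76021116 to 76023536, minus strand, hg38) had 328, 314 and 209 CPM in siFLI1 (587, 472 and 78 counts) and 1288, 983 and 857 CPM in siControl (2391, 1679 and 1003 counts). Every siFLI1 library was far below every siControl library, and the means were 284 ± 65.1 CPM in siFLI1 and 1043 ± 221 CPM in siControl (SD, n = 3 each), a ratio of 27.2%. Its log2 fold change was −1.87 with an SE of 0.30 and a 95% interval of −2.50 to −1.24 (edgeR; adjusted p = 0.00316). An exact permutation test (two-sided) on the CPM values gave p = 0.1, the smallest possible with 3 against 3 libraries. The call held in each of the 13 alternative fits, with adjusted p from 7.94e-08 to 0.0483 and log2 fold changes from −2.02 to −1.53.

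CXCL11 (row NM_005409, chromosome 4, 76033687 to 76036197, minus strand), the next gene of the cluster, was at 113, 87.0 and 88.4 CPM in siFLI1 and 132, 181 and 149.6 CPM in siControl. The groups did not overlap, but the fold change of −0.67 on the log2 scale, with an SE of 0.26 and an interval of −1.23 to −0.11, was not called (edgeR; adjusted p = 0.337). The difference between the fold changes of CXCL10 and CXCL11 was not tested. The related chemokine CXCL9 had 0 counts in siFLI1 and 0, 4 and 1 counts in siControl. CXCR3 had no count in any library, and DPP4, the protease that trims these chemokines, had 3 counts in siFLI1 and 1 in siControl.

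Promoter sequence is shown for CXCL10 and for the 4 further genes with the smallest unadjusted p that hold an ISRE core upstream of their deposited row, since that element is the one through which such genes are known to respond to type I interferon. The core was searched on both strands as GAAA, any 2 bases and GAAA, in the 250 bases before the RefSeq gene start (build GRCh38.p14), and bases that the deposited row covers are not shown. ISG20 and IFIT3 hold the core too, but not wholly upstream of their deposited row, and are left out. Their unadjusted p (edgeR) was 0.0286 for ISG20, which was higher in siFLI1, and 0.169 for IFIT3. The genes shown all had a log2 fold change below 0. Capitals mark each match, and a match on the other strand reads TTTC, any 2 bases and TTTC.
CXCL10, chr4:76023537-76023747, minus strand: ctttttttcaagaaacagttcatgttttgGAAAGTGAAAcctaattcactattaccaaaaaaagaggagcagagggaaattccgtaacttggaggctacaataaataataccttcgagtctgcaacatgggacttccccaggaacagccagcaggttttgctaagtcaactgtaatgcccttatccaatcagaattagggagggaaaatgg
IFIT5, chr10:89414318-89414567, plus strand: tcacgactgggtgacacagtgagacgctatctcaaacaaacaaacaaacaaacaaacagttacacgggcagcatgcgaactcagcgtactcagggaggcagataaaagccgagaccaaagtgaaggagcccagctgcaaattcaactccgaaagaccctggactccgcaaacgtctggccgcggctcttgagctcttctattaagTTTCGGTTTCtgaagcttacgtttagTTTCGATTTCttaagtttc
OAS3, chr12:112938224-112938432, plus strand: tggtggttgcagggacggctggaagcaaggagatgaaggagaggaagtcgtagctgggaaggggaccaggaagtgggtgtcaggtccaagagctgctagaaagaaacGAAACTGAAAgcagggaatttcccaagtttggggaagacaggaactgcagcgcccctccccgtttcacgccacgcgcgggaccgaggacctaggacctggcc
IFIT1, chr10:89392373-89392545, plus strand: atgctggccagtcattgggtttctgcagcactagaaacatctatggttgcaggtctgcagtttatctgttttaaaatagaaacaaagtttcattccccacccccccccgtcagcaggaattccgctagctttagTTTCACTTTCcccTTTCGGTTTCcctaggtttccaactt
ISG15, chr1:1013247-1013466, plus strand: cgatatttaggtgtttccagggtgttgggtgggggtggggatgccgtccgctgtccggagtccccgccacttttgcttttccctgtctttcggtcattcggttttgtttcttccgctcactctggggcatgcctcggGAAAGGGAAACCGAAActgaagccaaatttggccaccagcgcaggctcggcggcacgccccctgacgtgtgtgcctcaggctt
RefSeq promoter entries were found for 34 of the 41 genes, DDX58 under its current symbol RIGI, and 18 of the 34 held at least 1 ISRE core (52.9%), against 3.02% of all 35116 promoters in the same window. In CXCL10 the match spans bases −221 to −212 from the start site and shares bases with GGAA, the core bound by ETS factors such as FLI1, a core that 92.7% of all promoters hold. The repeat GGAAGGAA was in 3 of 34, IFIT3, SAMD9 and PARP9, against 3.06% of all promoters, and not in the window of CXCL10. The GAS pattern TTCNNNGAA was in 9 of 34, against 6.57% of all promoters. The kappaB motif, bound by NF-kappaB, was in 8 of 34, against 5.21%, and CXCL10 held it from −177 to −168 and from −122 to −113. Genes with and without an ISRE core in this window had overlapping ranges of fold changes. Of the 18 with the core, 14 had a log2 fold change below 0, with a median of −0.16 and a range of −1.87 to 0.86. Of the 16 without it, 12 were below 0, with a median of −0.33 and a range of −1.22 to 0.70. A match is a description of these letters and shows no binding. The 41 genes were listed because they are known interferon-stimulated genes. Shares of ISRE and GAS above those of all promoters may follow from that choice and are no result of these data.

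Of the 4 transcription factors of the set none was called, and their log2 fold changes lay on either side of 0. IRF7, which amplifies type I interferon transcription (row NM_004031, chromosome 11, 612555 to 615728, minus strand), was at 92.8, 77.7 and 50.9 CPM in siFLI1 and 169, 129 and 144 CPM in siControl. All siFLI1 libraries were lower, with a log2 fold change of −0.95 and an SE of 0.28 (edgeR; adjusted p = 0.146). IRF1, which binds many of the same promoters and is itself induced by interferon gamma (row NM_002198, chromosome 5, 132481609 to 132490773, minus strand), was at 83.3, 102 and 83.0 CPM in siFLI1 and 64.1, 48.6 and 53.0 CPM in siControl. All siFLI1 libraries were higher, with a log2 fold change of 0.70 and an SE of 0.28 (edgeR; adjusted p = 0.352). STAT2, a subunit of the ISRE-binding complex, was at 155, 175 and 214 CPM in siFLI1 and 107, 139 and 169 CPM in siControl. Its groups overlapped, and the log2 fold change was 0.38 with an SE of 0.26 (edgeR; adjusted p = 0.673). IRF9, the DNA-binding subunit of that complex, was at 17.3, 29.9 and 8.03 CPM in siFLI1, the last from 3 counts, and 35.0, 19.9 and 19.7 CPM in siControl. The groups of IRF9 overlapped, with a log2 fold change of −0.33 and an SE of 0.48 (edgeR; adjusted p = 0.87).

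**Figure D2:**
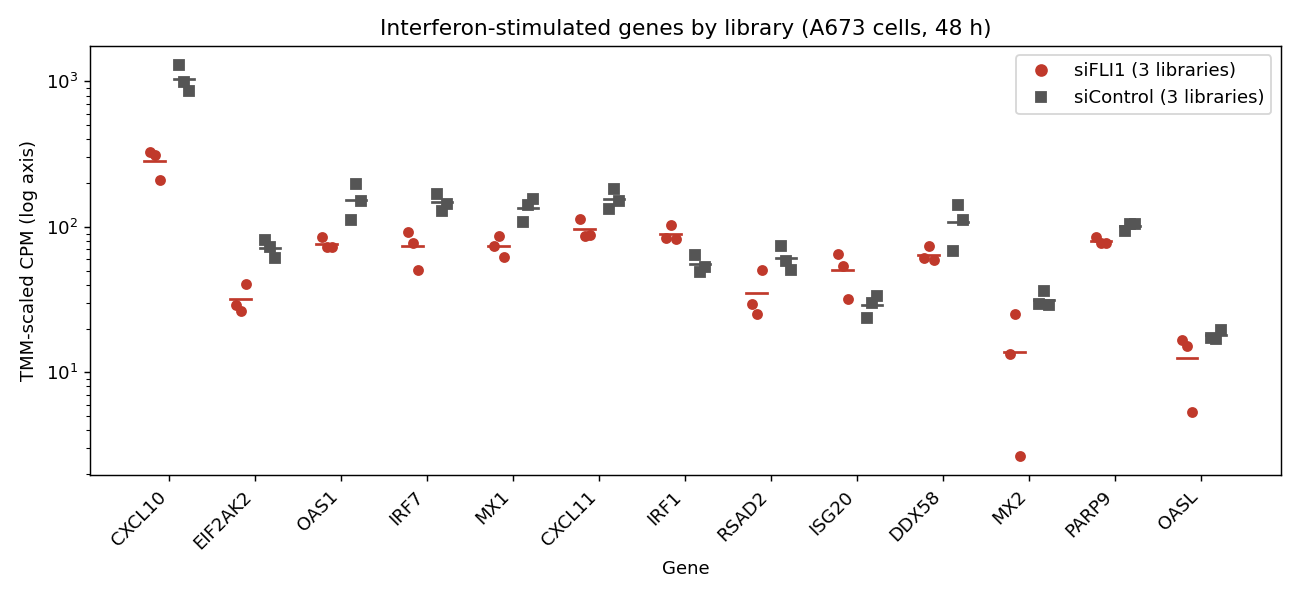
Scaled CPM (log axis) per library of the 13 genes with an unadjusted p below 0.05 or with groups that do not overlap, with siFLI1 as red circles left of siControl as grey squares and bars for the means of 3 libraries. CXCL10 has the widest gap between groups, with the siFLI1 mean at 284 CPM and the siControl mean at 1043 CPM, and IRF1 and ISG20 are the genes with the higher mean in siFLI1.

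None of the 3 RNA sensors was called. DDX58, which encodes RIG-I, a receptor for viral RNA ends (chromosome 9, 32455302 to 32526324), was at 60.9, 73.7 and 58.9 CPM in siFLI1 and 67.9, 142 and 112 CPM in siControl. The siControl replicate 1 value lay within the siFLI1 range. The log2 fold change was −0.72 with an SE of 0.31 (edgeR; adjusted p = 0.424). IFIH1, which encodes the long-RNA sensor MDA5, ranged over 64.3 to 121 CPM in siFLI1 and 46.3 to 112 CPM in siControl, and its log2 fold change was −0.07 ± 0.37 (SE). The helicase DDX60 was at −0.21 ± 0.41 on the same scale.

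EIF2AK2 encodes PKR, a kinase that halts translation when it binds double-stranded RNA (row NM_001135651, chromosome 2, 37105141 to 37157047, minus strand). It was at 29.1, 26.6 and 40.2 CPM in siFLI1 and 80.8, 72.6 and 60.7 CPM in siControl. The siFLI1 mean was 44.8% of the siControl mean with no overlap, at a log2 fold change of −1.22 with an SE of 0.32 and an interval of −1.90 to −0.54 (edgeR; adjusted p = 0.084). It passed with no filter on low counts (adjusted p = 0.0353) and in none of the other 12 alternatives.

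The oligoadenylate synthetases make the second messenger that activates the nuclease RNase L. OAS1 (row NM_016816, chromosome 12, 112906777 to 112919907, plus strand) was at 85.5, 72.4 and 72.3 CPM in siFLI1 and 111, 198 and 150.4 CPM in siControl, so every siFLI1 library was lower. Its log2 fold change was −0.99 with an SE of 0.28 (edgeR; adjusted p = 0.131). OAS3 was at 55.9, 69.1 and 109.8 CPM in siFLI1 and 68.4, 146 and 137 CPM in siControl. Its groups overlapped through siFLI1 replicate 3 and siControl replicate 1, and the log2 fold change was −0.63 with an SE of 0.35 (edgeR; adjusted p = 0.563). None of the 4 genes of the family was called, and differences between them were not tested. OAS2 was at −0.06 ± 0.33 (SE) on the log2 scale, with 29.5 to 40.8 CPM in siFLI1 and 34.6 to 37.6 CPM in siControl. OASL, a relative without synthetase activity, was at 16.8, 15.3 and 5.36 CPM in siFLI1, the last from 2 counts, and 17.2, 17.0 and 19.7 CPM in siControl. Its groups were separate by a narrow margin, and its log2 fold change of −0.39 (edgeR; adjusted p = 0.85) was smaller than its SE of 0.49. Without siFLI1 replicate 3 the log2 fold change of OASL was −0.16.

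The MX genes encode dynamin-like GTPases that trap viral components. MX1 (row NM_001144925, chromosome 21, 41420558 to 41459214, plus strand) was at 74.4, 86.4 and 61.6 CPM in siFLI1 and 107, 142 and 156 CPM in siControl. Each siFLI1 library was lower, with a log2 fold change of −0.84 and an SE of 0.27 (edgeR; adjusted p = 0.211). MX2 was at 13.4, 25.2 and 2.68 CPM in siFLI1, the last from 1 count, and 29.6, 36.3 and 29.1 CPM in siControl. Its groups did not overlap either, and its log2 fold change was −1.02 with an SE of 0.50 (edgeR; adjusted p = 0.495). It ran from −1.67 without siFLI1 replicate 2 to −0.72 without siFLI1 replicate 3. RSAD2, which encodes viperin (chromosome 2, 6877665 to 6898232), was at 29.6, 25.2 and 50.9 CPM in siFLI1 and 73.8, 58.0 and 50.4 CPM in siControl. Its siFLI1 replicate 3 reached the lowest siControl library, and the log2 fold change was −0.88 with an SE of 0.35 (edgeR; adjusted p = 0.362).

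ISG20, an exonuclease that degrades single-stranded RNA (chromosome 15, 88638743 to 88656344), had its higher mean in siFLI1. It was at 65.4, 53.8 and 32.1 CPM in siFLI1 and 23.7, 29.9 and 33.3 CPM in siControl. Only siFLI1 replicate 3 lay within the siControl range, and the log2 fold change was 0.86 with an SE of 0.35 (edgeR; adjusted p = 0.389). The other effectors lay near 0 on the log2 scale. The tetherin gene BST2 was at −0.12 ± 0.30 (SE), the ubiquitin ligase gene TRIM22 at −0.14 ± 0.33, the guanylate-binding protein gene GBP1 at −0.22 ± 0.32, SAMD9L at 0.12 ± 0.43 and SAMD9 at 0.09 ± 0.71.

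The IFIT proteins bind foreign RNA and block its translation. Their 4 genes had log2 fold changes from −0.68 for IFIT5 to −0.10 for IFIT2, with a median of −0.39, and none was called. IFIT3 was at 317, 262 and 257 CPM in siFLI1 and 280.0, 418 and 387 CPM in siControl. The groups overlapped because siControl replicate 1 was below siFLI1 replicate 1, and the log2 fold change was −0.37 with an SE of 0.26 (edgeR; adjusted p = 0.672). IFIT1 was at −0.41 ± 0.29 (SE) and IFIT5 at −0.68 ± 0.32 on that scale.

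ISG15 encodes a ubiquitin-like modifier that is joined to proteins by HERC5 and removed by USP18. It was at 2927, 2280.0 and 2257 CPM in siFLI1 and 1855, 3825 and 5019 CPM in siControl. The siControl libraries spanned a wider range than the difference between the groups, with replicate 1 below all siFLI1 libraries, and the log2 fold change was −0.52 with an SE of 0.38 (edgeR; adjusted p = 0.694). HERC5, HERC6 and USP18 had fewer counts and log2 fold changes of 0.06 ± 0.78, −0.28 ± 0.50 and −0.15 ± 0.63 (SE). PARP9 and DTX3L encode partners in a ubiquitin ligase complex and are transcribed from neighbouring starts in opposite directions. PARP9 was at 85.0, 77.7 and 77.6 CPM in siFLI1 and 94.2, 104 and 104 CPM in siControl. The groups did not overlap, yet the gap was small, at −0.33 ± 0.26 (SE; edgeR adjusted p = 0.722). DTX3L was at −0.34 ± 0.39 (SE) and PARP14, a related ADP-ribosyltransferase, at −0.06 ± 0.27 on the log2 scale.

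The remaining interferon-induced genes lay close to 0. IFI6, a mitochondrial and endoplasmic reticulum protein that counters cell death, was at 2433, 2904 and 2214 CPM in siFLI1 and 3053, 2762 and 2816 CPM in siControl. IFI27 was at 743, 629 and 584 CPM in siFLI1 and 726, 541 and 570.1 CPM in siControl. IFI44 was at 296, 293 and 394 CPM in siFLI1 and 279, 407 and 382 CPM in siControl. All 3 had overlapping groups, with log2 fold changes of −0.19 ± 0.30, 0.09 ± 0.26 and −0.13 ± 0.26 (SE). The nuclear body gene SP100 was at −0.18 ± 0.26, IFI44L at −0.11 ± 0.33, IFI35 at −0.33 ± 0.58 and XAF1, an antagonist of the apoptosis inhibitor XIAP, at 0.26 ± 0.34. For IFI6 the 95% interval of −0.84 to 0.46 does not reach the fold change of CXCL10, −1.87 (interval −2.50 to −1.24). The same holds for IFI27 at −0.47 to 0.66 and IFI44 at −0.69 to 0.43. It also holds for all others of the 41 genes except EIF2AK2 and MX2, so it does not set these 3 apart. Differences from CXCL10 were not tested.

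The libraries of each group differed among themselves. Within siControl, replicate 1 had the lowest level for 24 of the 41 genes, replicate 2 for 10 and replicate 3 for 7. The median log2 difference of replicate 1 from the other siControl libraries was −0.31 over the 41 genes, against 0.04 over all tested genes. That library was by contrast the highest siControl library for 12 of the 41 genes, among them CXCL10, IRF7, EIF2AK2 and RSAD2. Within siFLI1, replicate 3 was lowest for 22 genes and highest for 15. Without siFLI1 replicate 3 and siControl replicate 1, OAS1 (log2 fold change −1.15 ± 0.26, SE; adjusted p = 0.0356) and OAS3 (−1.19 ± 0.27; adjusted p = 0.0348) passed in edgeR beside CXCL10 (−1.53 ± 0.20; adjusted p = 0.000527). That made 3 of 40 genes called lower, against 0.334% of the 9577 genes tested in that fit, with 2 libraries per group. At an unadjusted p below 0.05, 14 of the 40 were lower, against 5.88% of all tested genes, and 2 higher, against 7.76%. In that fit 31 of the 40 lay below 0, against 50.2% of all tested genes, and their median was −0.38. The 14 added IFIT1, IFIT3, IFIT5, ISG15, OAS3 and USP18 to the 8 of the full set. ISG15 was at −0.77 ± 0.19 (SE; edgeR adjusted p = 0.0609) in that fit, IFIT1 at −0.85 ± 0.23 (adjusted p = 0.0844) and EIF2AK2 at −1.27 ± 0.34 (adjusted p = 0.0847). The log2 fold changes of IRF7, MX1 and CXCL11 were then −0.68, −0.90 and −0.73, and those of DDX58, IFIT5, IFIT3 and USP18 were −0.93, −0.98, −0.48 and −1.15. RSAD2 was at −0.99 and MX2 at −0.78, while ISG20 was at 0.91 and IRF1 at 0.86. Leaving out siControl replicate 1 lowers the fold changes of genes lowest in that siControl library, so these counts depend on the choice. In the fit without siControl replicate 2 alone, adjusted p was 0.422 for OAS1 and 0.812 for OAS3 (edgeR). In the fit without siControl replicate 3 alone, it was 0.321 and 0.826.

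**Figure D3:**
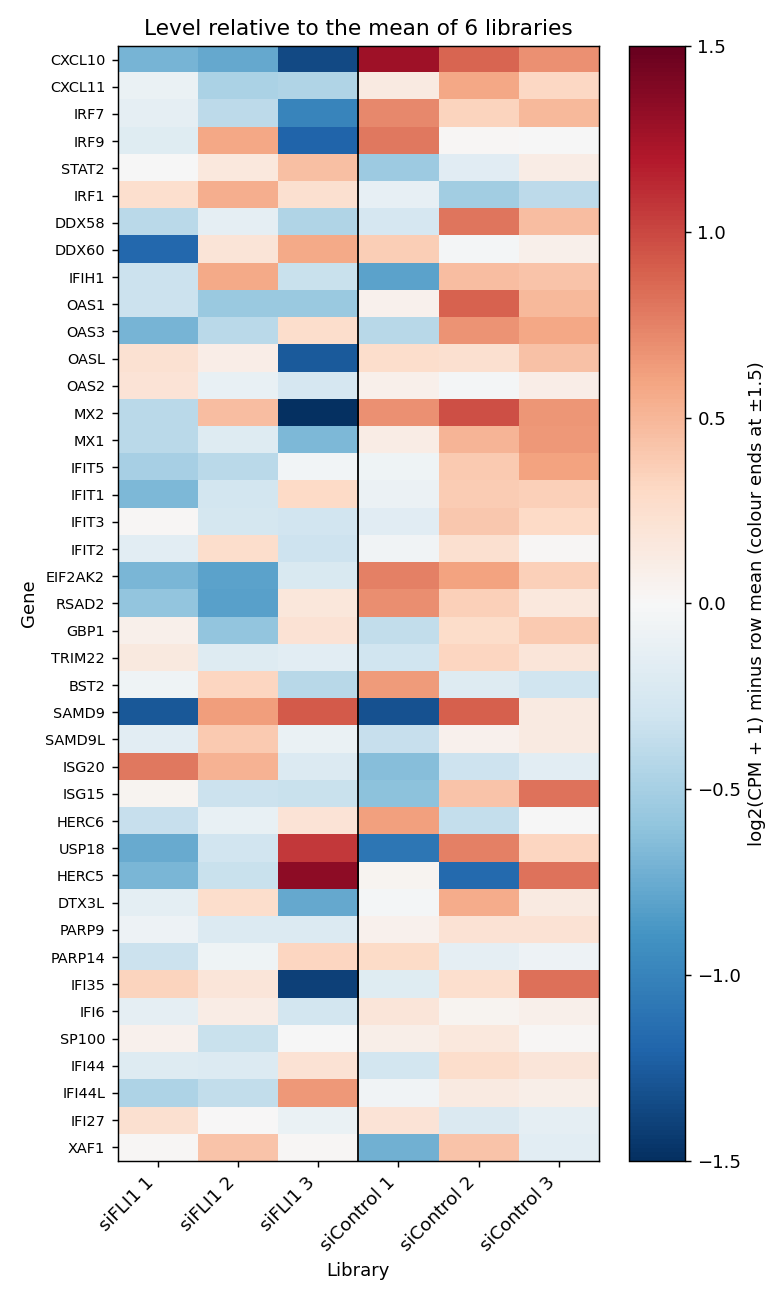
Level of each of the 41 genes (rows, by role) in each library (columns, siFLI1 left of siControl), as log2(CPM + 1) minus the mean of the 6 libraries, with colour from blue for lower to red for higher. The CXCL10 row is blue in all siFLI1 libraries and red in all siControl libraries, while siControl replicate 1 is the lowest siControl library for 24 of the 41 genes.

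Upstream, interferon transcripts were scarce in all libraries. Of 13 interferon ligand genes, 11 had no count in any library. IFNB1, the interferon made by most cell types, had 1, 0 and 0 counts in siFLI1 and 5, 2 and 5 counts in siControl. The ratio of pooled, scaled counts was 0.108 (95% counting interval 0.00252 to 0.727), and the unfiltered edgeR fit gave an adjusted p of 0.658. IFNL1 had 3 counts in siFLI1 and 7 in siControl. Other pathway genes below the filter also had counting intervals that exclude a ratio of 1. These intervals pool the 3 libraries of each group and leave out the spread between libraries. For the sensing gene TLR3 the ratio was 0.248 (0.0745 to 0.657). Ratios were higher for IFNLR1 at 11.0 (3.91 to 42.6), SOCS1 at 4.13 (1.45 to 14.4) and MB21D1 at 3.23 (1.36 to 8.47). All 20 siFLI1 counts of MB21D1 came from replicate 2, and IFNLR1 had 23, 11 and 0 counts in siFLI1. None of these 4 genes was called in the unfiltered edgeR fit. Adjusted p there was 0.658 for TLR3, 0.262 for IFNLR1, 0.723 for SOCS1 and 0.775 for MB21D1.

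Receptors and their kinases showed no call. Of 9 tested genes of the receptor, Janus kinase and STAT list, 0 passed in edgeR and 2 had an unadjusted p below 0.05. Over all tested genes, 4.13% were lower and 6.62% higher at that unadjusted p. IFNGR1, the ligand-binding chain of the interferon gamma receptor, was at 214, 256 and 257 CPM in siFLI1 and 145, 175 and 142 CPM in siControl. All siFLI1 libraries were higher, with a log2 fold change of 0.65 and an SE of 0.24 (edgeR; adjusted p = 0.306). The type I receptor chains IFNAR1 and IFNAR2 were at −0.22 ± 0.29 and 0.33 ± 0.34 (SE). IFNLR1, the type III receptor chain, did not pass the filter, with 34 counts in siFLI1 and 4 in siControl.

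Of 11 tested genes for nucleic acid sensing and adaptors, 0 passed and 0 had an unadjusted p below 0.05 in edgeR. Their median log2 fold change was −0.19. IFI16, a DNA sensor, was at −0.35 ± 0.24 (SE) and TRIM25, the ligase that activates RIG-I, at −0.19 ± 0.26. Of 10 tested negative regulators, 0 passed and SOCS3 had an unadjusted p below 0.05, where 6.62% of all tested genes were higher. SOCS3, an inhibitor of receptor-bound Janus kinases, was at 20.1, 25.2 and 16.1 CPM in siFLI1 and 7.54, 10.5 and 1.71 CPM in siControl. Each siFLI1 library was higher, with a log2 fold change of 1.61 and an SE of 0.58 (edgeR; adjusted p = 0.288). SOCS1, below the filter, had 16 counts in siFLI1 and 5 in siControl.

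A further 40 interferon-stimulated genes outside the set, of which 37 were tested, were split evenly, with 19 below 0, 18 above 0 and a median log2 fold change of −0.05. None passed in edgeR. Unadjusted p was below 0.05 for 6 of them, 3 higher and 3 lower, against 6.62% higher and 4.13% lower over all tested genes. DESeq2 and limma-voom each called 2 genes higher and 0 lower among all 67 tested genes of the pathway lists, and these were TNFSF10 and IFITM2. Over all genes with an adjusted p, DESeq2 called 2.06% higher and limma-voom 1.35%. TNFSF10 encodes the death ligand TRAIL and was at 94.5, 58.5 and 40.2 CPM in siFLI1 and 23.2, 2.34 and 12.0 CPM in siControl. All siFLI1 libraries were higher, with a log2 fold change of 2.39 and an SE of 0.57 (edgeR; adjusted p = 0.0646). The value for TNFSF10 ran from 1.89 without siControl replicate 2 to 3.27 without siControl replicate 1. In edgeR it passed without siFLI1 replicate 3 (adjusted p = 0.0304), without siControl replicate 1 (0.0454), without both (3.52; adjusted p = 0.00281) and with no filter (2.33e-06). IFITM2, a membrane protein that blocks viral entry, was at 665, 816 and 760.4 CPM in siFLI1 and 234, 459 and 279 CPM in siControl. Its groups did not overlap, with a log2 fold change of 1.21 and an SE of 0.30 (edgeR; adjusted p = 0.0654). IFITM1, IFITM2 and IFITM3 are close copies whose reads the counting could split. IFITM3 was at 10050.5, 7987 and 7229 CPM in siFLI1 and 2280.1, 8389.7 and 6345 CPM in siControl, so its lowest library was again siControl replicate 1. APOBEC3G, a cytidine deaminase, had a log2 fold change of 1.10 and an SE of 0.40 (edgeR; adjusted p = 0.288). The nuclear body gene SP110 was at −1.61 ± 0.47 (SE; edgeR adjusted p = 0.138), the antibody receptor gene TRIM21 at −1.31 ± 0.54 (adjusted p = 0.389) and the RNA-degrading PNPT1 at −0.60 ± 0.28 (adjusted p = 0.462).

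**Figure D4:**
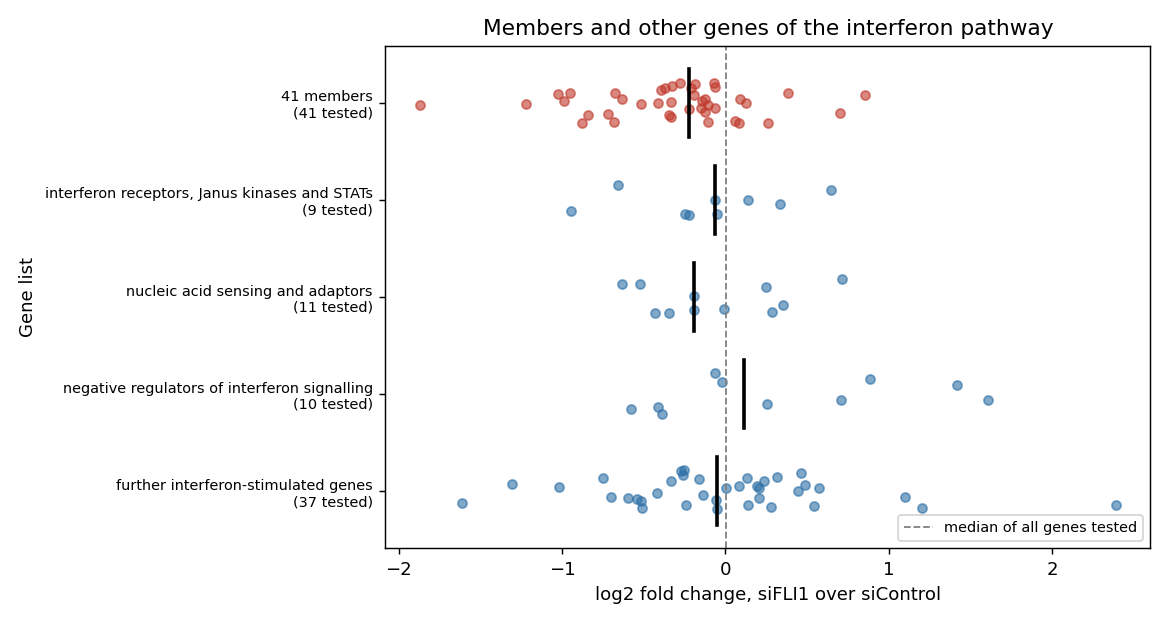
Log2 fold change of siFLI1 over siControl for the 41 genes (red) and for 4 lists of other interferon pathway genes (blue), 1 point per tested gene, with black bars for list medians and a dashed line for the median of all tested genes. The 41 genes have a median of −0.22, and the 37 further interferon-stimulated genes a median of −0.05.

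Rows of the 41 genes overlapped no other row of the deposited table. In the GENCODE annotation, exons of 13 of the 41 overlapped exons of another gene, among them MX1, OAS1, IRF1, RSAD2 with CMPK2, EIF2AK2 with GPATCH11, and PARP9 with DTX3L, all on the other strand. Overlaps on the same strand were those of IFIT2 with AL353751.1, IRF9 with AL136295.5, TRIM22 with OR56B1 and SP100 with HMGB1P3. The sources used here do not state whether counting used strand. Reads within the exon bases that an opposite-strand pair shares may therefore not be told apart. Strand would not separate reads within the shared bases of the same-strand pairs.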

How the data were processed

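The authors deposited 1 table of raw counts per gene over exons for 6 libraries, without normalization. Per the labels' protocols, these were 3' end libraries made after MARS-seq with molecular barcodes, from A673 cells 48 h after transfection. Per the submitters' processing notes, the tools included bcl2fastq, HISAT 0.1.5 and HOMER, and the build was hg38. The sources used here do not state whether barcodes were collapsed or strand was used. Column names matched sample titles, which gave group and replicate. Separate cultures are not stated for the libraries. Each p-value therefore covers only the spread among these libraries, possibly a technical one. No pair of libraries in a group agreed within sampling noise (lowest ratio of chi-square to its degrees of freedom 7.48).

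Genes were filtered with filterByExpr (minimum count 10, minimum total 15) and scaled by TMM. Fits used R 4.3.3 and edgeR 4.0.16 (glmQLFit, robust, and glmQLFTest on the group term, two-sided), with Benjamini-Hochberg adjustment over all 9420 tested genes and a threshold of 0.05. Standard errors and 95% intervals come from the F statistic. Counting intervals cover counting error only. Alternatives were DESeq2 size factors, total counts, no filter, DESeq2 1.42.0, limma-voom (limma 3.58.1), the replicate block and fits without libraries.

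The 41 genes, 6 pathway lists and 4 marker lists were chosen with earlier results of these data known. Values in every library are given for genes of the set with an unadjusted p below 0.05, no overlap, one of the 6 highest mean levels, or a role as transcription factor. Of each pathway list, genes with an unadjusted p below 0.05 are named, except 1 gene that is not reported here, otherwise those with the highest levels, and other genes named were chosen after their values were seen. Promoters are from RefSeq, GRCh38.p14, and gene overlaps from GENCODE 29.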

Additional observations from a re-analysis of the deposited data

How the results depend on the processing

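CXCL10 kept its direction and its call in each of the 13 alternatives, with log2 fold changes from −1.99 to −1.70 in the fits without 1 library. The genes of the set called numbered 1, CXCL10, in the main result and in 11 alternatives, 2 with no filter on low counts and 3 without siFLI1 replicate 3 and siControl replicate 1. Genes called over the whole table numbered 137, against 368 with no filter, 217 in DESeq2, 193 without siFLI1 replicate 3 and siControl replicate 1, and 65 to 126 in fits without 1 library. Of the pathway lists, 0 genes were called, against 3 with no filter, 2 in DESeq2, 2 in limma-voom, 1 with the replicate block, 1 without siFLI1 replicate 3 and siControl replicate 1, and 0 to 1 in fits without 1 library. The median log2 fold change of the 41 genes, −0.22, was −0.41 without siControl replicate 1. The causes of these differences were not tested.

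Scaling by total counts moved the median of all genes by −0.13 on the log2 scale, and 35 of the 41 genes then lay below 0, with a median of −0.35. Deviations of same-numbered libraries had correlations near 0 (−0.0227, −0.0134 and −0.0427), where pairs with unlike numbers ran from −0.0885 to 0.113. These values cannot show whether same-numbered libraries were made together. With the replicate block CXCL10 was at −1.88 (edgeR adjusted p = 0.00784), PRKCB was not called (0.094), TNFSF10 was (0.0256), and 101 genes were called.

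Log2 fold changes that changed sign all belonged to genes that were not called. Under total counts IFI27 was at −0.058 and HERC5 at −0.052. In limma-voom IFIH1 was at 0.027, SAMD9 at −0.10 and HERC5 at −0.11. Over the fits without 1 library and the fit without siFLI1 replicate 3 and siControl replicate 1, IFI27 ran from −0.015 to 0.29, IFI44L from −0.54 to 0.10, IFIH1 from −0.47 to 0.14, OAS2 from −0.22 to 0.020, IRF9 from −0.83 to 0.24, XAF1 from −0.015 to 0.61 and BST2 from −0.33 to 0.37. DDX60 ran from −0.51 to 0.21, SAMD9 from −0.69 to 0.78, SAMD9L from −0.11 to 0.26, PARP14 from −0.23 to 0.085, USP18 from −1.15 to 0.33, HERC5 from −0.66 to 0.69, HERC6 from −0.48 to 0.033 and GBP1 from −0.57 to 0.0042. HERC5 did not pass the filter in the fit without both libraries.

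Depth limited the genes with few counts, since 1 count in siFLI1 replicate 3 is 2.68 CPM. In that library MX2 and IFI35 had 1 count each, OASL had 2, IRF9 had 3, DTX3L and HERC6 had 6 each, SAMD9L had 7, and HERC5 and SAMD9 had 8 each.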
